A study of Homo sapiens with 2 samples.

Results

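Distal LDB1 peaks that held an AP-1 motif and no GATA motif were examined in NB4 cells, an established human line of acute promyelocytic leukemia. CUT&Tag, in which an antibody brings a transposase to the bound protein so that the DNA beside it is cut and tagged, gave 2 libraries. The one made with LDB1 antibody is labelled as LDB1 overexpression and the IgG one as untreated, so antibody and treatment cannot be told apart. Neither group was replicated, so the groups were not compared by any test. For each deposited LDB1 peak only its position and length are known, with neither height nor summit, so the depth behind a peak is unknown, and each interval given is a 95% interval of counting error within this single library.

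A peak was chosen when its midpoint lay over 1000 bp from the transcription start site (TSS) of any annotated transcript. In the 200 bp centred on the midpoint it had to hold the AP-1 motif, TGAGTCA or TGACTCA. It also had to lack the GATA motif on both strands, that is GATA with an A or T before it and an A or G after it. Of 11046 peaks, 8906 were distal by this distance, 4509 of those had no GATA motif, and 434 of the 4509 (9.63%) held the AP-1 motif. Just outside the distance limit lay peaks at 865, 881 and 932 bp from a TSS, and just inside lay peaks at 1008, 1015 and 1039 bp.

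AP-1 is a pair of bZIP proteins, made from the JUN, FOS, ATF and MAF families, that grips its motif with a helix on each side and acts downstream of growth factor and stress kinases. It marks many enhancers in myeloid cells, where it often sits beside RUNX, ETS and CEBP factors. LDB1 does not touch DNA itself. It joins LMO2, which bridges it to TAL1 and its E-box partner and to GATA factors, and it pairs with other LDB1 molecules so that distant sites can be brought together.

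The sequences show the motif that the rule required of each peak. For 7 of the 10 longest, 41 bases around the AP-1 copy nearest the midpoint are printed with the motif in capitals, from the plus strand of hg38, since length was the only size the peaks carried.
PDZK1IP1: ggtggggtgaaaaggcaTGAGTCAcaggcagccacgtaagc
GSE1: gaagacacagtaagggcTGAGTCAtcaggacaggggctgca
SLC12A7: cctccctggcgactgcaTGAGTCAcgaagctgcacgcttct
ADAM30: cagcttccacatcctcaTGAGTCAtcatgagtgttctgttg
HS1BP3: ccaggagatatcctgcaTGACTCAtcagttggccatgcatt
CD164: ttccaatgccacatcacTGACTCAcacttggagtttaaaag
CORO1C: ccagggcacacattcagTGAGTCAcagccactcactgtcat
Each peak is named by the protein-coding gene that holds its midpoint, or else by the nearest protein-coding TSS, and the name says nothing of which gene it acts on.

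The longest was an intergenic peak at chr1:47180074-47184306 (4233 bp), whose midpoint lay past the 3′ end of PDZK1IP1 and 50035 bp from the 5′ end of TAL1. PDZK1IP1 lies between this midpoint and TAL1, and the peak reached into its 3′ end. TAL1 is the blood stem cell and red cell factor that LMO2 and LDB1 join. The next was chr16:85534685-85537378 (2694 bp) in an intron of GSE1, and then chr5:1066967-1069228 (2262 bp) in intron 17 of SLC12A7, a potassium chloride cotransporter. An intergenic peak at chr1:119858714-119860811 near ADAM30 was 2098 bp long. Others were in introns of HS1BP3 (chr2:20578660-20580313, 1654 bp) and CORO1C (chr12:108691108-108692611, intron 2, 1504 bp). The peak at chr6:109303451-109305046 (1596 bp) was in an intron of a gene that is not protein-coding, with CD164 as the nearest protein-coding TSS.

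To ask how common the motif was, its share was set against nearby sequence. Flanks were 200 bp windows 1000 bp to either side of the distal peaks without a GATA motif, kept where they too lacked a GATA motif and overlapped no peak. The AP-1 motif was in 9.63% of the peaks (interval 8.80 to 10.5%) and in 191 of 5702 flanks (3.35%, 2.91 to 3.85%), a ratio of 2.87 (2.43 to 3.39). Distal peaks with a GATA motif held it in 447 of 4397 cases (10.2%), and the share without GATA was lower by 0.54 points with an interval that includes 0 (-1.78 to 0.70). Among GATA-free peaks within 1000 bp of a TSS, 88 of 1337 (6.58%) held it, and the distal share exceeded this by 3.04 points (1.37 to 4.55).

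The 434 peaks held 470 copies of the motif in their 200 bp. A single copy was found in 407 peaks, 22 had 2 copies, 3 had 3, 1 had 4 (in an ERICH1 intron) and 1 had 6. Of the copies, 129 (27.4%) were centred within 25 bp of the midpoint and 258 (54.9%) within 50 bp, so within the window they were spread nearly evenly. Over a wider range, copies fell from 0.572 per kb in the innermost 50 bp of distal GATA-free peaks to 0.291 per kb at 250 to 300 bp. The copies at 100 to 150 bp, outside the window that chose the peaks, were still at 0.530 per kb.

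**Figure D1:**
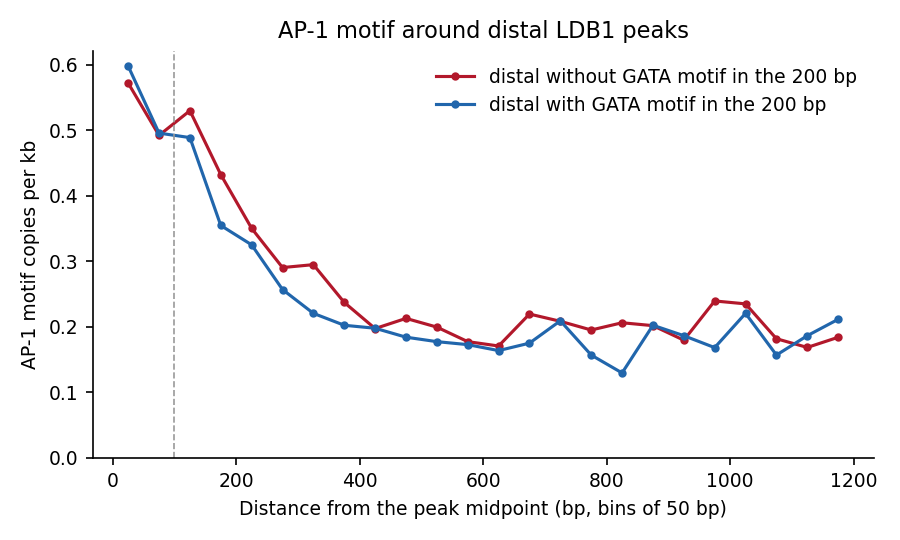
AP-1 motif copies per kb (vertical axis) in bins of 50 bp by distance from the peak midpoint (horizontal axis, bp), for all distal LDB1 peaks without and with a GATA motif in the central 200 bp. The dashed line marks the edge of that window. Both lines fall from 0.572 and 0.598 copies per kb in the first bin and level off near 0.2 past 450 bp.

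The peak with most copies shows the motif in tandem. The 200 bp window of the peak at chr16:89994839-89995151 (313 bp), which lies in an exon and is named by DBNDD1, is printed because it held 6 copies, given in capitals on the plus strand:
DBNDD1: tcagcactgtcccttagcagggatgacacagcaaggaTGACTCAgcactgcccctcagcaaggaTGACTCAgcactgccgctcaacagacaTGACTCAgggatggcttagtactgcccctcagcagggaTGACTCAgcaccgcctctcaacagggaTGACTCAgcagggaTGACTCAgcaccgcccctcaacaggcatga
The motif recurs inside a repeated unit, and its central 31 bases occurred 3 times in hg38. In contrast, the window of an intron peak at chr11:86743295-86743922, named by PRSS23, held 3 copies close together in sequence with no such unit, and its central bases occurred once:
PRSS23: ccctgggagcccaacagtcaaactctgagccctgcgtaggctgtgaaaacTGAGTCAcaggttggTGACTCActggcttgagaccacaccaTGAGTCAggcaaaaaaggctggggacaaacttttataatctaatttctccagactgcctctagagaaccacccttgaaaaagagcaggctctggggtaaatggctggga
Peaks named by ARHGAP26 (chr5:143245883-143246508) and BAK1 (chr6:33590102-33590653) also held 3 copies.

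The bases beside the motif were not used to choose the peaks. TGAGTCA and TGACTCA are each other's reverse complement, so every copy has 2 arms, and the base before the motif was read toward the motif on each strand. Thymine stood there in 60 of 940 arms (6.38%, 4.99 to 8.13%), against 73 of 402 arms of the copies in flanks (18.2%, 14.7 to 22.2%). The difference was -11.8 points (-16.1 to -7.90). Counted by copy, 12.1% of the copies in the peaks and 33.3% of those in flanks had thymine on at least 1 side. Thymine made up 23.5% of the peak windows and 25.9% of the flank windows over both strands. The part of base composition in the difference between arms was not tested. Cytosine stood before the motif in 36.8% of arms and guanine in 31.2%, and each differed from the flanks by an interval that includes 0, whereas purines together were at 56.8% against 50.2% (difference 6.56 points, 0.746 to 12.3).

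The same measure was taken in peaks that the rule left out. In distal peaks with AP-1 and GATA motifs, thymine stood before the motif in 9.13% of 942 arms, a difference from the flanks of -9.03 points (-13.4 to -5.03). In GATA-free peaks near a TSS it was 10.9% of 202 arms, with a difference of -7.27 points (-12.7 to -1.15). All 3 groups of peaks thus lay below the flanks. These were in each case the flanks of distal GATA-free peaks, not each group's own. This comparison was added after the bases had been seen.

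**Figure D2:**
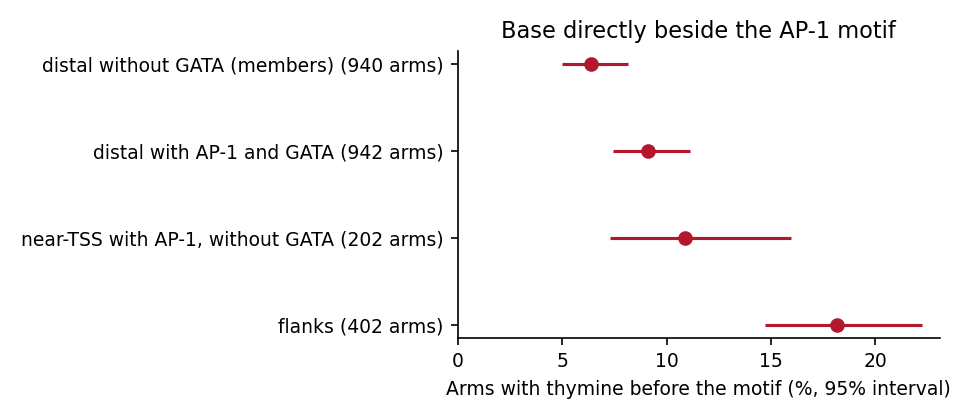
Share of AP-1 arms with thymine directly before the motif (horizontal axis, %), in the distal GATA-free peaks, in distal peaks with both motifs, in GATA-free peaks near a TSS and in flanks of distal GATA-free peaks. Points are shares and lines are Wilson 95% intervals over arms. The first 3 groups sit at 6.38, 9.13 and 10.9%, below the flanks at 18.2%.

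To see how closely the gain followed the exact letters, the motif was changed at 1 base of its arm at a time, again after the data had been seen. With the central G or C replaced by A or T, the motif was in 2.73% of distal GATA-free peaks and 2.44% of flanks, a ratio of 1.12 (0.881 to 1.42). Changing the first base to A gave a ratio of 1.55 (1.34 to 1.78), the highest of the 10 changed motifs. Changing it to C or G gave 1.33 (0.9304 to 1.90) and 1.24 (1.06 to 1.45). With A, C or T in place of the second base the ratios were 0.742, 1.18 and 0.940. With C, G or T at the third base they were 0.687, 0.813 and 0.952, none above 1. Each changed motif thus stood below the 2.87 of the intact motif.

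MAF recognition elements extend the AP-1 letters with TGC, and are bound by NF-E2 and BACH proteins paired with small MAFs, which act in red cells and megakaryocytes. TGC stood beside the motif on at least 1 side in 48 of 470 copies (10.2%) and in 19 of 201 flank copies (9.45%), a difference of 0.76 points (-4.65 to 5.28). Most of the 6 copies in the DBNDD1 window are followed by gca, which is TGC on the other strand. Several of the 48 thus came from a single tandem repeat. The full element with TGC on both sides was found in 0 of 470 copies, which allows a share of up to 0.638%. A CRE, TGACGTCA, the related site of CREB and ATF proteins, was found in 0 of 434 peaks.

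Partner motifs were searched in the same 200 bp and compared with the other 4075 distal GATA-free peaks, which lack the AP-1 motif. The E-box of TAL1, CAGATG or CAGCTG, was in 178 of the 434 AP-1 peaks (41.01%, 36.5 to 45.7%) and in 31.3% of the others, a difference of 9.75 points (4.998 to 14.6). The AP-1 letters can themselves overlap an E-box, and 23 pairs did. With such E-boxes left out the share was 37.6%, and the difference 6.29 points (1.64 to 11.1). By form, CAGATG was in 25.1% against 19.2% and CAGCTG in 20.5% against 14.99%. With overlaps left out, the difference for CAGATG was 3.34 points with an interval that includes 0 (-0.54 to 7.67), and that for CAGCTG was 3.67 points (0.10 to 7.75). The related E-box CACCTG, counted after the data had been seen, was in 18.9% of the AP-1 peaks, 21.1% of the others (-2.23 points, -5.87 to 1.90) and 24.3% of the flanks (-5.40 points, -10.4 to -0.22). With overlaps left out its difference from the others was -4.54 points (-7.99 to -0.56). The others hold no AP-1 motif, so leaving out overlaps can only lower the share in the AP-1 peaks. The part of this step in the CACCTG difference was not tested. In the flanks of the same AP-1 peaks the E-box was in 121 of 568 windows (21.3%). Distal peaks with both AP-1 and GATA motifs held it in 37.4%, and the AP-1 peaks without GATA exceeded this by 3.65 points with an interval from -2.78 to 10.1.

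RUNX, the core binding factor of blood cells, had its motif TGTGGT or TGCGGT in 89 AP-1 peaks (20.5%) and in 20.9% of the others (difference -0.35 points, -4.11 to 3.88). The CEBP motif TTGCNNAA, for the granulocyte factors CEBPA and CEBPE, was in 33 (7.60%) against 7.46% (0.14 points, -2.16 to 3.13). For ETS factors such as PU.1 and ERG, AGGAAGT or CGGAAGT was in 35 (8.06%) against 5.60%, a difference of 2.47 points (0.137 to 5.49). Without letters shared with AP-1 the ETS difference was 2.01 points with an interval that includes 0 (-0.257 to 4.97), and several alternative settings also lost it. Of the 434 peaks, 261 held at least 1 of these 4 motifs and 173 (39.9%) held none.

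The KLF motif CCNCNCCC was in 142 AP-1 peaks (32.7%), against 30.4% of other GATA-free peaks, with an interval of the difference that includes 0 (-2.19 to 7.05), and above the 22.7% of their own flanks (10.01 points, 4.43 to 15.6). It stood 12.6 points (6.78 to 18.3) above its share in distal peaks with both AP-1 and GATA (20.1%). Those peaks had a lower GC content in the 200 bp, with a median of 49% against 52.75%, and the part of GC content in that difference was not tested. Motifs of IRF (a pair of GAAA with a spacer, 1.38 against 1.74%), STAT (TTCNNNGAA, 3.69 against 4.86%) and TEAD (GGAATG, 12.4 against 11.8%) had intervals of the difference that include 0.

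**Figure D3:**
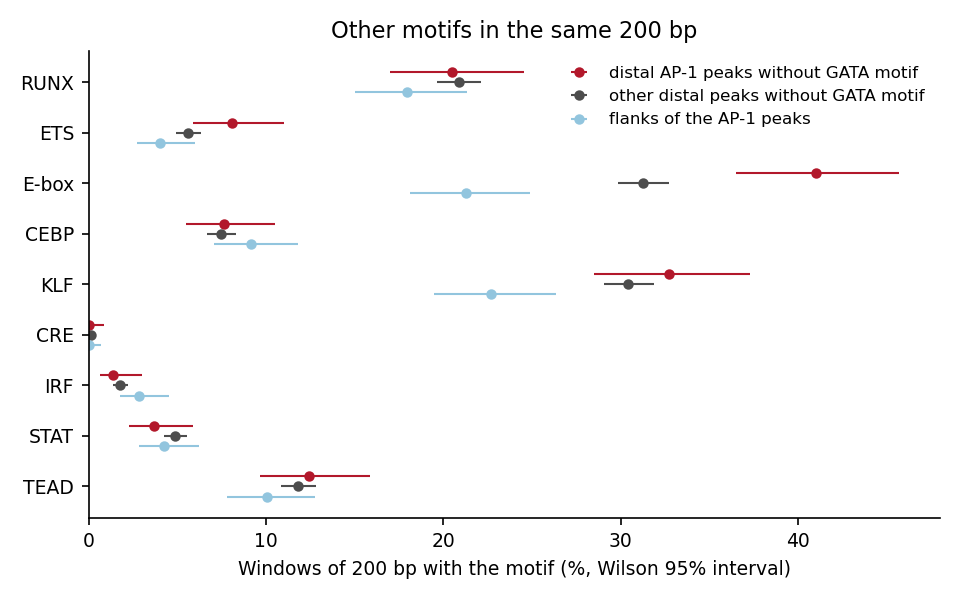
Share of 200 bp windows with each motif (horizontal axis, %) in the 434 distal AP-1 peaks without a GATA motif, the other distal peaks without a GATA motif, and flanks of the AP-1 peaks. Points are shares and lines are Wilson 95% intervals. The TAL1 E-box is at 41.01, 31.3 and 21.3%, while RUNX and CEBP overlap in all 3 groups.

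A window without GATA is not a peak without GATA. The GATA motif was present elsewhere in the peak, not wholly inside the 200 bp, in 179 of the 434 (41.2%, 36.7 to 45.9%). This share depends on the window, and was 55.2% with 100 bp and 17.1% with 400 bp. The other GATA-free peaks had it in 48.5%, a difference of -7.30 points (-12.1 to -2.36). The share rose with length, from 57 of 217 AP-1 peaks up to the median length (26.3%) to 122 of 217 above it (56.2%), and each of the 10 longest held it. Within the window, near-GATA letters were counted after the data had been seen. AGATTA or TGATTA was in 82 AP-1 peaks (18.9%) against 13.2% of the others (5.67 points, 2.10 to 9.74). Flanks of the AP-1 peaks held it in 14.3% (4.63 points, 0.019 to 9.38). Distal peaks with both AP-1 and GATA motifs held it in 16.6%, and this difference had an interval that includes 0 (2.34 points, -2.71 to 7.40). GATA motifs with C or G as the first base were in 14.5% of the AP-1 peaks against 12.8% of the others (1.71 points, -1.48 to 5.46).

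The composite of the LDB1 complex, CTG followed after 7 or 8 bases by a GATA motif, lets TAL1 and GATA factors sit side by side. It was inside the peak but not wholly inside the window in 37 AP-1 peaks (8.53%, 6.25 to 11.5%), against 14.2% of the other GATA-free peaks (-5.66 points, -8.19 to -2.48). Like the count of GATA elsewhere in the peak, this one depends on peak length, as longer peaks hold more sequence beyond the window. Median lengths were 430.5 bp for the AP-1 peaks and 404 bp for the others, and upper quartiles 582.5 and 648.5 bp. The part of length in either difference was not tested. The space between the AP-1 motif and the composite ranged from 22 to 1181 bp with a median of 189 bp, and in 14 peaks it was 150 bp or less. Of those with little space, 4 are printed from the plus strand of hg38, with the AP-1 motif and the composite in capitals.
PLEK2: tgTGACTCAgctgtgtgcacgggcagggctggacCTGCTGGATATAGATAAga
MARCHF3: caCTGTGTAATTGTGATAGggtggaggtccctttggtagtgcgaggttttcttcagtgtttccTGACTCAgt
GPATCH1: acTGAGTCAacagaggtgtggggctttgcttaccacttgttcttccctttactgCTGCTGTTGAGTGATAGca
ZNF778: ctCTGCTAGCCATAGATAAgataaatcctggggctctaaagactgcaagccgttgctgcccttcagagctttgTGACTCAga
They lie at chr14:67419070-67419122, chr5:126847541-126847612, chr19:33101309-33101381 and chr16:89216358-89216439, with 25, 44, 45 and 54 bp between the motifs. In PLEK2 the composite crossed the edge of the window, with its centre 93.5 bp from the midpoint. The composite lay on either side of the AP-1 motif and at no single distance.

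GATA2, the stem and progenitor GATA factor and a partner in the complex, held 1 of the AP-1 peaks, at chr3:128482826-128483409 (584 bp) in intron 4 of the gene on the minus strand. Its introns are known for an enhancer that joins an E-box and a GATA site. The peak had a GATA motif only outside the central window, in a composite 270 bp from the AP-1 motif. The stretch from chr3:128483032-128483329 is printed from the plus strand because it spans both, in capitals:
GATA2: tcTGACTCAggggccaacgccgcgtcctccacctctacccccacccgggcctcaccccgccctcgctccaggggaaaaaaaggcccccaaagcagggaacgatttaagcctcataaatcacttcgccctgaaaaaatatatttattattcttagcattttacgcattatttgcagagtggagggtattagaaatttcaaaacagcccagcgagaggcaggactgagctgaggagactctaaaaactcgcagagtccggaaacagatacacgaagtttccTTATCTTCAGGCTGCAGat
On the plus strand the composite reads in reverse, with the GATA motif as TTATCT. Its midpoint was 1039 bp from an annotated TSS, so this peak stood just inside the distance limit.

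RUNX2, a runt factor known best for bone and named by the study among its candidates, held an AP-1 peak at chr6:45541741-45542205 (465 bp) in intron 7. It had 1 AP-1 copy, no RUNX motif in its 200 bp and a GATA motif elsewhere in the peak, and its nearest neighbouring peak was 1067844 bp away. The 41 bases around the motif were
RUNX2: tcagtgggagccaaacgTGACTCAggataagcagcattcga

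Peak length was compared next. The AP-1 peaks were 230 to 4233 bp long with a median of 430.5 bp (413 to 457), against 404 bp (398 to 412) for the other GATA-free peaks, a difference of 26.5 bp (7.26 to 53.7). This difference reversed to -17 bp (-44.5 to 10.8) with a motif window of 400 bp and to -119 bp (-167 to -79.0) among peaks of 451 bp or more. They were shorter than distal peaks with both motifs (median 522 bp, difference -91.5 bp, -118 to -51.5) and than those with GATA and no AP-1 motif (481 bp, -50.5 bp, -70.2 to -22.2). Near-TSS AP-1 peaks without GATA had a median of 453.5 bp, and the interval of that difference includes 0 (-78.3 to 24.6). The order of the medians did not hold at the long end, where the upper quartile was 582.5 bp for the AP-1 peaks and 648.5 bp for the other GATA-free peaks.

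**Figure D4:**
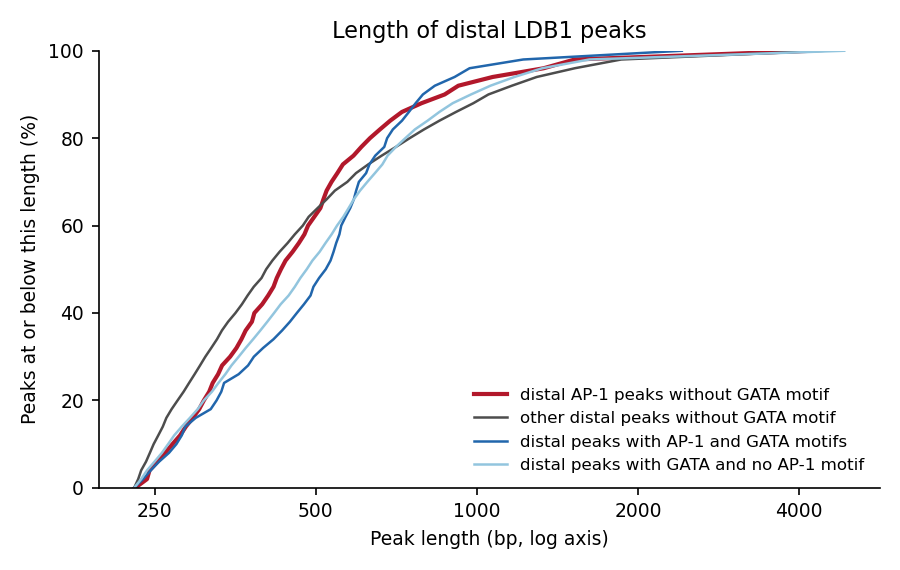
Cumulative share of peaks (vertical axis, %) by peak length (horizontal axis, bp, log scale) for 4 groups of distal peaks. The AP-1 peaks without GATA (red, median 430.5 bp) lie to the right of the other GATA-free peaks (median 404 bp) among short peaks and cross them among longer ones, and they lie left of peaks with both motifs (median 522 bp) at the median.

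The position of the peaks was compared with that of the other GATA-free peaks. Midpoints fell in introns in 247 cases (56.9 against 58.2%, difference -1.25 points, -6.18 to 3.58), in intergenic sequence in 168 (38.7 against 35.0%, 3.69 points, -1.01 to 8.57) and in exons in 19 (4.38 against 6.82%, -2.44 points, -4.20 to 0.03). Of the 19 in exons, 3 were in coding sequence, 8 in untranslated or other exons of protein-coding genes, and 8 in noncoding genes. The median distance to a TSS was 8461.5 bp (7416 to 9797) and 8129 bp for the others. More of the AP-1 peaks lay 10000 to 50000 bp from a TSS (41.7 against 36.7%, 4.99 points, 0.209 to 9.91) and fewer at 50000 to 100000 bp (11 peaks, 2.53 against 4.66%, -2.13 points, -3.44 to -0.0895). The remaining distance classes had intervals that include 0. Their differences were -0.048 points at 1000 to 3000 bp, -2.77 points at 3000 to 10000 bp and -0.045 points over 100000 bp.

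Neighbouring peaks were counted next. Another AP-1 peak without GATA lay within 10000 bp of 28 of the 434 (6.45%), while a peak of any kind did so for 249 (57.4 against 59.0% of other GATA-free peaks). A peak with the composite in its central 200 bp was within 10000 bp of 43 (9.91 against 9.64%, difference 0.26 points, -2.38 to 3.55). The median distance to the nearest peak was 6659.5 bp (5477 to 8639), against 5643 bp for other GATA-free peaks and 18443 bp for peaks with both AP-1 and GATA motifs. Chromosome 1 had 59 of the peaks, chromosome 2 had 33 and chromosome 6 had 30. The AP-1 share of distal GATA-free peaks ran from 4.93% on chromosome 4 (7 of 142 peaks, 2.41 to 9.83%) to 18.8% on chromosome 13 (12 of 64 peaks, 11.1 to 30.0%). These are the lowest and highest among the chromosomes, picked after the values were seen, and their intervals do not allow for that choice.

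Repeated sequence was rarer among them. Of the AP-1 peaks, 34 (7.83%) had central 31 bases with further copies in hg38, against 14.7% of other GATA-free peaks (-6.82 points, -9.26 to -3.72). The 31 bases around the AP-1 motif itself were repeated for 41 of 470 copies (8.72%) and 31 of 201 flank copies (15.4%), a difference of -6.70 points (-12.8 to -1.48). The most repeated centres were those of peaks at chr22:16670446-16670754, with 23785 copies, and chr7:44996017-44996362, with 5430. How reads that match many places were aligned is not given in the sources used here, so a position in such a peak is uncertain.

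To relate the peaks to genes, protein-coding genes with a midpoint inside them or within 10000 bp were counted. Of 20033 genes, 291 (1.45%) had at least 1 AP-1 peak without GATA, and 24.9% had a peak of any kind. A single such peak was found at 274 genes and 2 at 15 genes. HS1BP3 had 3 of its 4 peaks of this kind. GSE1, whose product sits in a histone deacetylase complex, had 4, but among 50 peaks in a gene 506680 bp long. SLC2A1, the glucose transporter GLUT1, and SLC7A5, a large amino acid transporter, had 2 each (of 13 and 5 peaks); these were picked out among the 15 after their values were seen.

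The genes of listed pathways were counted in the same way. Over 12 lists with 158 entries, 2 genes had such a peak, GATA2 among 18 of the LDB1 complex and RUNX2 among 19 candidates named by the study, a share near the 1.45% of all genes. Lists of this size would seldom hold such a gene at that share, so a count of 0 says little about a list. The count was 0 of 12 AP-1 subunit genes, 0 of 14 CNC and MAF factors, 0 of 24 MAP kinase genes, 0 of 16 antioxidant genes and 0 of 28 inflammatory and immediate early genes. It was also 0 for promyelocyte and neutrophil markers (8 genes), monocyte (5), red cell (6), megakaryocyte (4) and mast cell and basophil markers (4). Peaks of any kind, present at 24.9% of all protein-coding genes, were at 14 of the 18 complex genes and 14 of the 19 candidates. The study chose its candidates partly by transcription factor binding in datasets that included LDB1, so a high count there was set up beforehand. That list also holds genes that are not protein-coding, such as DLGAP1-AS1. Among marker lists they were at 6 of 6 red cell and 6 of 8 promyelocyte and neutrophil genes. They were at 1 of 5 monocyte, 1 of 4 megakaryocyte and 1 of 4 mast cell and basophil genes. For AP-1 subunits and CNC and MAF factors the counts were 3 of 12 and 6 of 14. For the MAP kinase, antioxidant and inflammatory lists they were 8 of 24, 4 of 16 and 5 of 28.

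A different measure, a midpoint within 100000 bp of the 5′ end of the gene, was chosen after the data had been seen. By it, 16 of the 158 entries had such a peak, against 4.66% of all protein-coding genes. RUNX2 was not among them, since its peak lay 213816 bp from its 5′ end. In the LDB1 complex list they were GATA2, CBFA2T3 (32177 bp), TAL1 (50035 bp) and LMO2 (51011 bp), 4 of 18. This is not particular to the AP-1 peaks. Other distal GATA-free peaks lay in or within 10000 bp of 12 of these 18 genes, against 10.9% of all protein-coding genes. Their share at 100000 bp is not given here. CBFA2T3 encodes the ETO2 repressor of the complex, and its peak was at chr16:89009235-89009534. The LMO2 peak, at chr11:33942936-33943238, was 303 bp long, held a RUNX motif, and had a peak with the composite within 10000 bp. AZU1, ELANE and PRTN3, the neighbouring granule protease genes of promyelocytes, shared a single peak in an intron of R3HDM4 (chr19:909136-909608), at 84275, 58358 and 68373 bp, so these 3 of 8 marker genes count 1 peak.

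Among AP-1 subunit genes, JUN had a peak 97550 bp from its 5′ end (chr1:58881417-58881780), 1 of 12. MAFF, a small MAF, had one at 54881 bp, and the inflammatory list had NFKBIA (48519 bp) and TNF (14976 bp). KLF1, the red cell KLF factor, had one at 91012 bp, and the study's candidates DLGAP1-AS1, IRF2BP2, ZFP36L2 and FMNL1 had them at 30447, 47258, 57645 and 72238 bp. The MAP kinase, antioxidant, monocyte, megakaryocyte and mast cell and basophil lists had 0 at this reach too. Lists this short give percentages that 1 peak can move, and no contact between a peak and a gene was measured.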

How the data were processed

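The authors made 1 LDB1 and 1 IgG CUT&Tag library of paired-end reads from NB4 cells. Reads were aligned to hg38 with Bowtie2 2.4.4 and peaks called with MACS3 3.0 at a q-value limit of 0.01. Whether IgG served as control, and how duplicates and reads matching many places were treated, is not given in the sources used here. For each LDB1 peak the deposited table gives chromosome, start, end and length in bp, with no score, summit or count. IgG entered no comparison. Depth is unknown.

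Midpoints were compared with transcripts of GENCODE release 44. Motifs were searched as letters on both strands. Shares have Wilson intervals, differences of shares Newcombe intervals, and medians intervals from order statistics, all at 95%. The difference of medians and the ratio to flanks combine both counting errors. For a count of 0 the limit is 3 counts. Arms of a copy, and copies of a peak, are not independent. Copies of 31 bases were counted in hg38. The software was pysam 0.24.0, numba 0.67.0, SciPy 1.17.1, pandas 2.3.3, numpy 2.4.6, matplotlib 3.10.9 and Python 3.11.15, and the search was tested on simulated data.

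Members, motifs and the 12 gene lists were chosen with earlier results of these data known. The peaks named were the 10 longest, up to 5 with the whole MAF element (there were 0), the 5 with most AP-1 copies, those of genes with most such peaks, and up to 4 genes of each list. Of the 10 longest, 3 are not reported here by sequence or position. The 4 composites printed for their short space were chosen after values were seen. Alternatives were other TSS distances, motif windows, the longer peaks, unrepeated centres, and a GATA motif absent from the whole peak.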

Additional observations from a re-analysis of the deposited data

How the results depend on the processing

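No paired analysis was possible because there was 1 library for each antibody. Of 91 alternative values for 15 results, 71 were scored as unchanged. A share or ratio was so scored within its main interval, and a count within a set factor. A difference was so scored when its interval still included 0, or still lay on the same side of 0. Where both intervals include 0 the sign could change, as for CEBP (0.14 points, and -0.31 points at 3000 bp from a TSS). With a motif window of 100 bp, the AP-1 share of distal GATA-free peaks was 5.03%, GATA elsewhere in the peak 55.2%, the RUNX difference -3.72 points with an interval that excludes 0, and the ETS difference reversed to -0.0038 points. With a window of 400 bp, the AP-1 share was 17.8%, GATA elsewhere 17.1%, the ETS difference 2.48 points with an interval that includes 0, the difference in copies with TGC 5.79 points with an interval that excludes 0, and the length difference reversed to -17 bp. In the longer 5537 peaks (451 bp or more) there were 201 members at 147 genes, 57.7% with GATA elsewhere, and the length difference reversed to -119 bp, where the shorter peaks are left out by construction. The ETS difference had an interval that includes 0 also at 3000 bp from a TSS (1.80 points) and with unrepeated centres (2.13 points). Chosen after seeing the data, absence of GATA from the whole peak left 255 members at 172 genes, an AP-1 share of 10.8%, a ratio to flanks of 3.44 and an ETS difference of 1.93 points with an interval that includes 0. The E-box difference, the lower share of repeated centres and the deficit of thymine beside the motif kept their direction and intervals on 1 side of 0 under each alternative run. For the E-box these runs counted overlaps with the AP-1 letters, and the smallest difference was 5.81 points (0.663 to 10.8), with a window of 400 bp. The E-box difference with overlaps left out was not run under the alternatives. The cause of the other changes was not tested. With 1 library, spread between cultures is unknown, and a peak list without depth cannot rank binding.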
